A study of Mus musculus with 18 samples.

Results

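Interferon-stimulated and antigen presentation genes were followed across mouse embryonic fibroblasts in which the RNA-binding protein IMP2 had been knocked down and which had or had not been given the cytokine IL-17. The set comprised 40 genes, chosen by name from the 48709 genes of the deposited count table: interferon-induced transcription factors, RNA sensors, antiviral effectors, guanylate-binding and immunity-related GTPases, and the machinery that cuts and loads peptides for MHC class I. The choice was made with earlier results of these data known. All 40 had a row in the table, and 33 of them passed the low-count filter and were tested among 13702 genes. The other 7 (Oas1a, Oas2, Mx1, Mx2, Rsad2, Iigp1 and Cmpk2) held 8 to 65 counts each over all libraries and were described without a test.

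The cells were fibroblasts of strain C57BL/6. They were transfected either with a control siRNA, in samples whose treatment label reads Mock, or with an siRNA against IMP2 (gene symbol Igf2bp2), and 24 h later the medium was changed and they were left unstimulated or stimulated for 8 h with 200 ng/mL of IL-17. This gave 4 groups of 3 RNA-seq libraries: control siRNA, control siRNA with IL-17, Imp2 siRNA, and Imp2 siRNA with IL-17. Every group had therefore been transfected, and no untransfected cells and no cells given interferon were part of the comparison. In each group 1 library has a title that begins with RB160 (numbered replicate 1 here) and 2 have titles that begin with NA (replicates 2 and 3); the labels do not explain the prefixes. A second experiment, RNA immunoprecipitation and sequencing (RIP-seq), compared 3 precipitations with an antibody against IMP2 with 3 with rabbit IgG from fibroblasts given IL-17 for 3 h. The sources do not say whether replicates came from separate cultures, so p-values measure the spread between these libraries, which may be technical.

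As background, interferons act through cell-surface receptors and JAK kinases. Type I interferons activate a complex that includes STAT2 and IRF9 and binds the interferon-stimulated response element (ISRE), while type II interferon acts through the gamma-activated site (GAS). The induced genes detect viral RNA, block viral replication, disrupt the vacuoles of intracellular pathogens and raise the display of peptides on MHC class I. Fibroblasts carry type I interferon receptors and express many of these genes at a low basal level.

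Library totals lay between 33841054 and 44433699 counts, and levels are given as CPM, counts scaled to a common library size with TMM factors. The targeted gene behaved according to the labels. Igf2bp2 stood at 134, 167 and 146 CPM in the control siRNA libraries (RB160 library first here and in every list of 3 values below) and at 139, 166 and 156 CPM with IL-17. It stood at 24.6, 22.3 and 18.6 CPM in the Imp2 siRNA libraries and at 28.2, 24.3 and 18.4 CPM with IL-17, a log2 fold change of -2.77 (SE 0.165) without and -2.70 (SE 0.164) with IL-17. All 11 listed fibroblast markers were tested, with a summed level of 15883 to 23522 CPM in which the collagens Col1a1 and Col1a2 and the intermediate filament Vim weighed most; several of the others fell after Imp2 siRNA, as given with the other markers below.

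Imp2 siRNA was accompanied by lower levels of many of these genes. Without IL-17, 17 of the 33 tested members fell, 1 rose and 15 did not pass an adjusted p of 0.05 (edgeR's quasi-likelihood test with the title prefix as a covariate, Benjamini-Hochberg adjustment over all 13702 genes). With IL-17, 15 fell, 1 rose and 17 did not pass. The knockdown went with changes in a large part of the transcriptome: the falls made up 16.4% and the rises 16.1% of all tested genes (32.4% together) in unstimulated cells, and 16.6% and 16.7% (33.3% together) in stimulated ones. The median log2 fold change of the tested members was -0.56 without and -0.52 with IL-17, against -0.0004 and -0.0067 for all tested genes. Of the 33, 30 and 29 lay below 0, against 50.1% and 51% of all tested genes. In all, 13 members fell in both comparisons, 4 passed without IL-17 but not with it (Ddx58, Gbp3, Ifih1 and Ifit3) and 2 with IL-17 but not without it (Oasl2 and Psmb10); whether the knockdown effect on them depended on IL-17 is covered by the test of the difference given below. Irgm1 was the member that rose, in both. In bulk RNA, fewer cells of a kind that expresses a gene and less RNA per cell cannot be told apart.

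**Figure D1:**
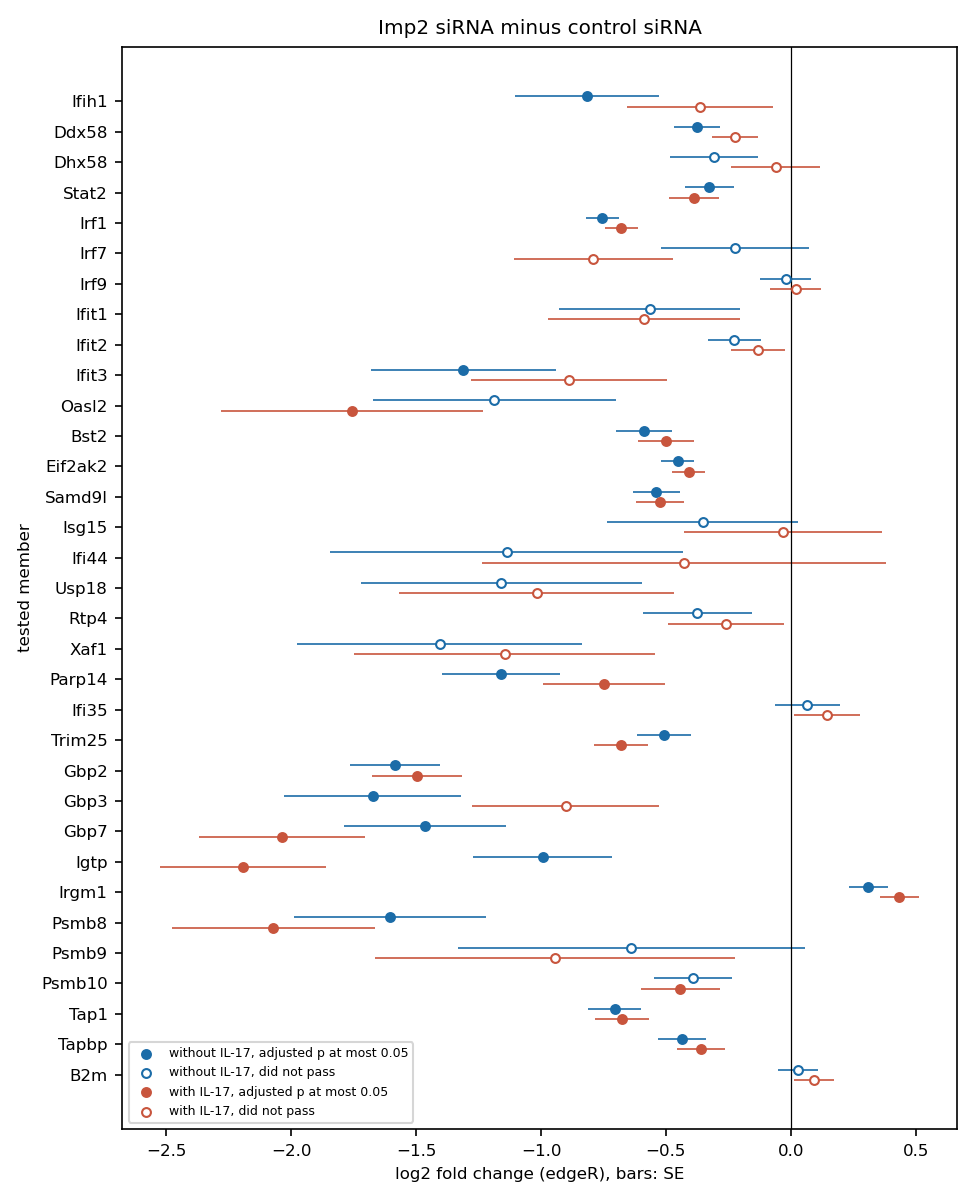
Log2 fold change of Imp2 siRNA against control siRNA (x axis; bars, SE) for the 33 tested members, ordered by role, without IL-17 (blue) and with IL-17 (red), 3 libraries a group. Filled points passed an adjusted p of 0.05; 30 points without and 29 with IL-17 lie left of 0, and Irgm1 is the filled point to the right.

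These counts rested on taking the title prefix into account. With no prefix term, none of the members passed in either comparison (303 and 318 of all genes did), and among NA libraries alone 12 members passed without IL-17 and 13 with it. Leaving out Imp2 siRNA replicate 1, an RB160 library, left 11 members past the threshold without IL-17, all of which fell. The median log2 fold change among NA libraries alone was -0.53 without and -0.37 with IL-17, over 26 members tested. With IL-17 it was -0.32 over 36 members tested without Imp2 siRNA with IL-17 replicate 1, an RB160 library.

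For the median member the libraries of the 2 prefixes differed more than the siRNA groups did. Of the 33 tested members, 31 were higher in the RB160 than in the NA libraries, 1 (B2m) was lower and 1 (Dhx58) did not pass, with a median log2 difference of 1.59 against 0.002 for all tested genes; 34.8% of all tested genes were higher and 34.5% lower (69.3% together). Ifit1, Ifi44, Oasl2, Usp18, Psmb9 and Xaf1 reached the filter level in RB160 libraries alone, so their direction was fixed by the filter and their tests rest mainly on 1 library a group. Of the other 27 tested members, 25 were higher in RB160 libraries, with a median log2 difference of 1.02 over the 27. Among these Parp14 differed most, by 3.27 on the log2 scale (SE 0.160), followed by Gbp7 at 3.24 (SE 0.216) and Igtp at 3.14 (SE 0.199). In all 4 groups the RB160 library lay above both NA libraries for 34 of the 40 members, among them untested ones such as Oas1a and Rsad2. This count was not made over all tested genes and is no result about the members. The members Oas1a, Oas2, Rsad2 and Iigp1 had 0 counts in all 8 NA libraries. No tested member reached the filter level in 1 siRNA arm alone. Marker sums also differed by prefix: smooth muscle genes came to 8814 to 21116 CPM in NA and 4260 to 11291 CPM in RB160 libraries, epithelial genes to 84 to 207 CPM and 37.9 to 69.2 CPM, fibroblast genes to 15883 to 19588 CPM and 18305 to 23522 CPM, and macrophage and dendritic cell genes to 8.69 to 16.1 CPM and 8.32 to 12.8 CPM. Their part in the prefix difference of the members was not tested.

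**Figure D2:**
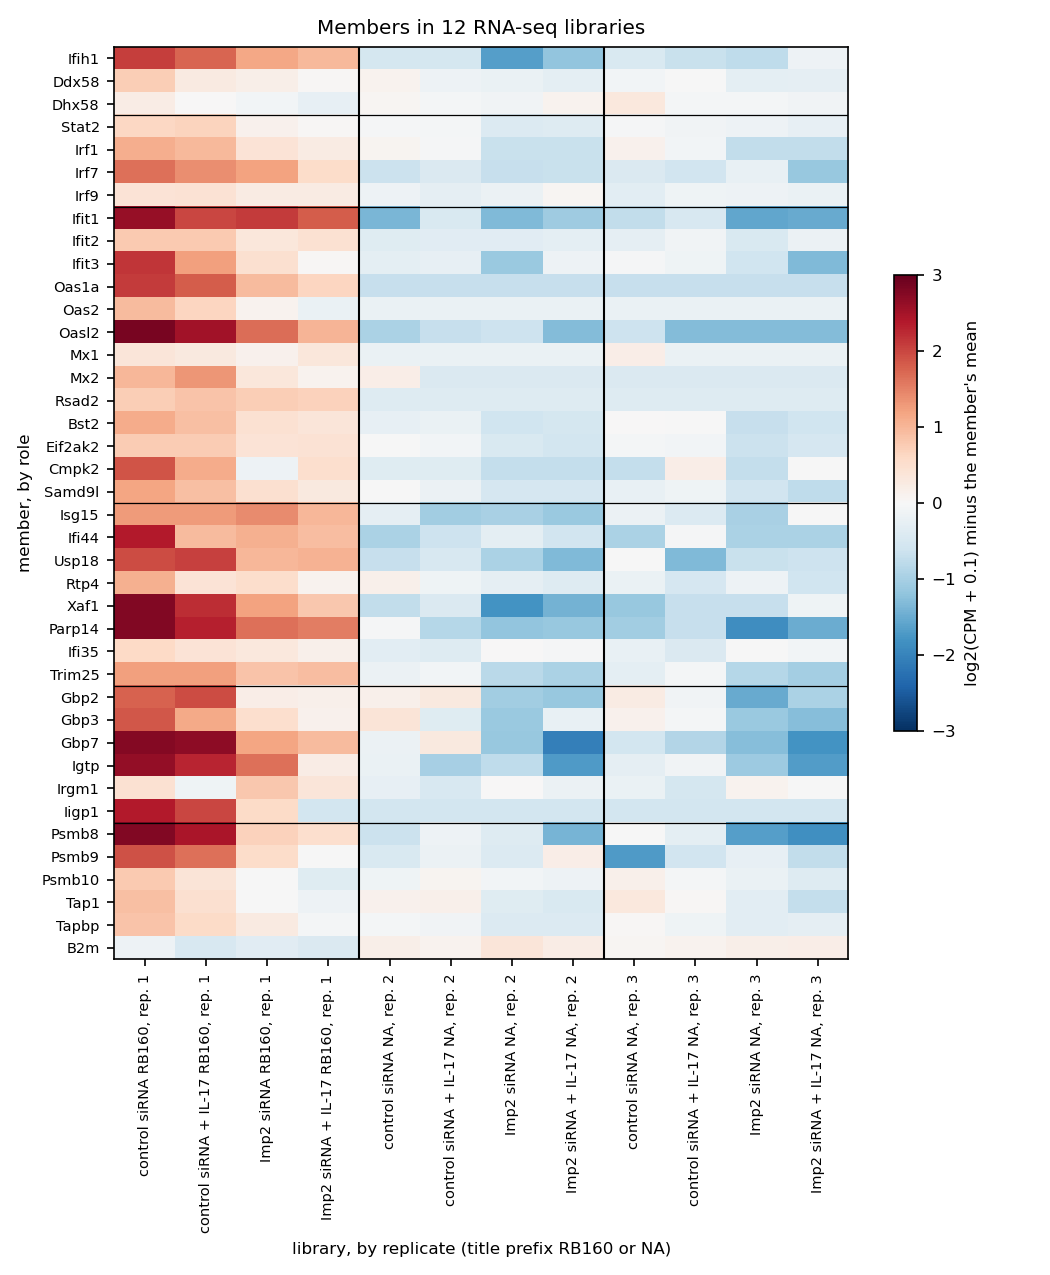
Level of the 40 members (rows, by role) in the 12 RNA-seq libraries (columns, by replicate), as log2(CPM + 0.1) minus the member's mean over the libraries. The 4 RB160 columns on the left are red for nearly all members, B2m being bluer there, and within them the 2 control siRNA columns are redder than the 2 Imp2 siRNA columns.

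Within each prefix the direction was the same for a core of members. In the NA libraries, 12 of the 33 tested members had all 4 Imp2 siRNA libraries below all 4 control siRNA libraries, IL-17 disregarded: Stat2, Irf1, Ddx58, Bst2, Gbp2, Gbp7, Tap1, Tapbp, Parp14, Eif2ak2, Trim25 and Samd9l. That separation was found for 21.1% of all tested genes, and the opposite one, found for 21.8%, was shown by Irgm1 and Ifi35. In the RB160 libraries, 27 of 33 had both Imp2 siRNA libraries below both control siRNA libraries, against 30.6% of all tested genes, and none had them above, against 29% of genes. All 12 members of the NA group were also lower in the RB160 libraries, and 14.4% of all tested genes were lower in both.

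**Figure D3:**
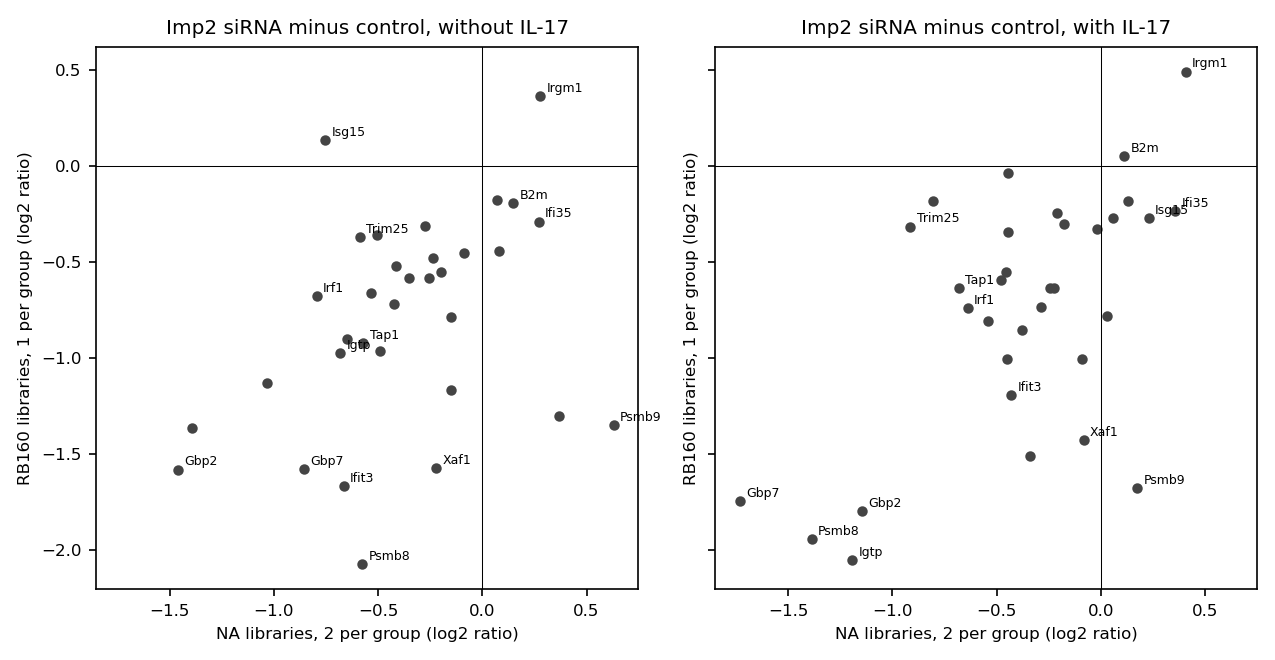
Log2 ratio of Imp2 siRNA to control siRNA (CPM with 0.1 added) in the NA libraries (x axis, mean of 2 libraries a group) and in the RB160 libraries (y axis, 1 library a group) for the 33 tested members, without IL-17 (left) and with IL-17 (right). Most points lie at the lower left; Irgm1 lies at the upper right and Ifi35 at the lower right in both panels.

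Markers of white blood cells were low in all groups. Of 12 macrophage and dendritic cell markers in the table, 3 were tested, and Adgre1, Siglech and Tyrobp had 0 counts in all 12 libraries. Their summed level was 8.32 to 15 CPM in control siRNA cells, 12.8 to 16.1 with IL-17, 8.69 to 10.4 with Imp2 siRNA and 9.69 to 11.7 with both, most of it Cd14, Cd68 and Csf1r. The leukocyte antigen gene Ptprc did not exceed 0.0875 CPM, and the 7 lymphocyte markers together did not exceed 0.204 CPM. Smooth muscle genes moved the other way from the interferon set: 5 of 6 rose in both comparisons, from a summed 5713 to 10650 CPM in control siRNA cells to 11291 to 21116 CPM in Imp2 siRNA cells, and from 4260 to 10210 CPM against 9193 to 19810 CPM with IL-17. The fibroblast markers moved the same way as the interferon set: 8 of 11 fell and 1 (Col1a1) rose in both comparisons, with median log2 fold changes of -0.57 without and -0.66 with IL-17. Pdgfra, a growth factor receptor of fibroblasts, lay at 18.3 to 116 CPM in control siRNA cells and 3.47 to 26 CPM in Imp2 siRNA cells, the matrix proteoglycan Dcn at 4.51 to 31.7 against 0.555 to 6.95 CPM, and the mesenchymal transcription factor Prrx1 fell by 0.89 on the log2 scale. The 6 endothelial markers together did not exceed 1.53 CPM, and the 5 epithelial markers, most of it Krt19, lay between 37.9 and 207 CPM, with summed levels of 41.7 to 125 CPM in control siRNA cells and 69.2 to 207 CPM in Imp2 siRNA cells. Of the 4 epithelial markers tested, 2 rose without and 3 with IL-17, and 1 fell in each comparison. Cdh1 went against the sum, at 0.355 to 1.47 CPM in control siRNA cells and 0.117 to 0.614 CPM in Imp2 siRNA cells. The part of these shifts in the changes of the members was not tested. Over all tested genes falls made up 16.4% without and 16.6% with IL-17, and rises 16.1% and 16.7%.

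The cytosolic RNA sensors fell in part. RIG-I (Ddx58), which detects RNA with a triphosphate end, stood at 46.3, 29.6 and 25.7 CPM in control siRNA cells and at 30.9, 23.8 and 22.5 CPM in Imp2 siRNA cells, a log2 fold change of -0.38 (SE 0.0909, adjusted p = 0.00576). With IL-17 it stood at 33.2, 24.6 and 27.4 CPM against 28.0, 22.2 and 22.7 CPM, -0.22 on the log2 scale (adjusted p = 0.0751), which did not pass, although it did when the compared groups alone were fitted (adjusted p = 0.0325). MDA5 (Ifih1), the sensor of long double-stranded RNA, fell by 0.82 on the log2 scale without IL-17 (SE 0.288, adjusted p = 0.0438). Its levels were 6.61, 1.01 and 1.07 CPM against 3.5, 0.409 and 0.846 CPM, and the groups overlapped because of the RB160 libraries. The call on Ifih1 was lost without any one of 5 of the 6 libraries compared, with log2 values from -0.91 to -0.58, and with IL-17 its log2 fold change of -0.36 became 0.06 without Imp2 siRNA with IL-17 replicate 1 and 0.02 among NA libraries alone, and it passed at -0.76 without replicate 3 of that group. LGP2 (Dhx58), a regulator of both sensors, did not pass, at log2 fold changes of -0.31 and -0.06.

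Among the transcription factors, Irf1 and Stat2 fell and Irf7 and Irf9 did not pass. IRF1, which activates interferon and MHC class I pathway genes, stood at 39.9, 19.8 and 20.5 CPM in control siRNA cells and at 37.0, 18.3 and 17.8 CPM with IL-17. In Imp2 siRNA cells it stood at 24.9, 11.9 and 11.3 CPM, and at 22.2, 11.9 and 11.3 CPM with IL-17. Each prefix showed the same step and no overlap: log2 ratios were -0.68 in the RB160 and -0.80 in the NA libraries without IL-17, and -0.74 and -0.64 with it. The fitted log2 fold changes were -0.76 (SE 0.0663, adjusted p = 1.9e-06) and -0.68 (SE 0.0666, adjusted p = 4.9e-06), and leaving out any library kept them between -0.79 and -0.64.

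STAT2, which works with IRF9 in the type I interferon complex, changed less, with log2 fold changes of -0.33 (SE 0.0991, adjusted p = 0.0214) and -0.39 (SE 0.0993, adjusted p = 0.00807). Its levels ran from 12.7 to 21.5 CPM in the 6 control siRNA libraries and from 10.1 to 14.9 CPM in the 6 Imp2 siRNA libraries. The Stat2 call was lost without control siRNA replicate 1 (-0.27) or Imp2 siRNA replicate 1 (-0.26) or 2 (-0.28), and with IL-17 without replicate 1 of either group (-0.29 in both cases). Its partner Irf9 had log2 fold changes of -0.02 and 0.02 (SE 0.102 in both), the smallest of the group. Irf7, the factor that amplifies interferon-alpha transcription, lay between 0.125 and 1.45 CPM, and its log2 fold changes of -0.22 and -0.79 did not pass.

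Of the 7 tested antiviral effectors, 4 fell in each comparison, against 16.4% of all tested genes without and 16.6% with IL-17. Eif2ak2, the kinase PKR that halts translation on double-stranded RNA, stood at 41.9, 24.3 and 23.6 CPM in control siRNA cells and at 32.7, 17.9 and 15.8 CPM in Imp2 siRNA cells, -0.45 on the log2 scale (SE 0.0668, adjusted p = 0.00016). With IL-17 Eif2ak2 fell by 0.41 (SE 0.0667, adjusted p = 0.00035). Samd9l, a restriction factor that curbs translation of viral and cellular mRNA, fell by 0.54 and 0.52 on the log2 scale (SE 0.0946 and 0.0955). Bst2, or tetherin, which holds budding virions at the cell surface, stood at 14.7, 5.60 and 6.78 CPM against 9.26, 4.39 and 4.11 CPM and fell by 0.59 and 0.50 on the log2 scale (SE 0.111 and 0.112, adjusted p = 0.0011 and 0.0034). For Eif2ak2, Samd9l and Bst2 the Imp2 siRNA libraries lay below the control siRNA libraries within each prefix.

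The members of the IFIT and OAS families were scarce, apart from Ifit2. Ifit3, one of the tetratricopeptide proteins that bind viral RNA, stood at 3.07, 0.491 and 0.597 CPM against 0.898, 0.234 and 0.379 CPM, -1.31 on the log2 scale (SE 0.369, adjusted p = 0.0142). That call was lost without control siRNA replicate 1 (-0.72) or Imp2 siRNA replicate 1 (-1.20), both RB160 libraries, and was -0.82 among NA libraries alone (adjusted p = 0.206). With IL-17 the log2 fold change of Ifit3 was -0.89 and did not pass, but did at -1.44 without Imp2 siRNA with IL-17 replicate 2. Ifit2 lay between 8.02 and 19.1 CPM and did not pass, at -0.23 and -0.13. Ifit1 did not pass either, at -0.56 and -0.59.

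Oasl2, a relative of the oligoadenylate synthetases, stood at 1.32, 0.0531 and 0 CPM in control siRNA cells with IL-17 and at 0.398, 0 and 0 CPM in Imp2 siRNA cells with IL-17. Its log2 fold change of -1.76 (SE 0.525, adjusted p = 0.019) came from the RB160 pair: without either library of that pair it did not pass (-1.45 and -3.52), nor did it with DESeq2 (adjusted p = 0.0871). The untested Oas1a, which makes the activator of RNase L, was at 0.594 and 0.472 CPM in the RB160 control siRNA libraries without and with IL-17 and at 0.213 and 0.155 CPM in the RB160 Imp2 siRNA libraries. Oas2, Mx1, Mx2, Rsad2 and Cmpk2 did not exceed 0.499 CPM in any library. Ifit and Oas genes are families of similar sequence, and how reads that match several copies were counted is not stated.

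In the group of ISG15 and signalling modulators, 2 of 8 fell in each comparison. Over all tested genes 16.4% fell without and 16.6% with IL-17, shares at which 2 of 8 is no result about the group. Trim25, the ubiquitin ligase that activates RIG-I, stood at 34.1, 12.8 and 11.8 CPM in control siRNA cells and at 26.3, 8.27 and 8.05 CPM in Imp2 siRNA cells, -0.51 on the log2 scale (SE 0.107, adjusted p = 0.0023). With IL-17 the levels were 34.3, 13.8 and 13.9 CPM against 27.6, 7.48 and 7.12 CPM, -0.68 (SE 0.107, adjusted p = 0.00026). The step was larger in the NA libraries, at log2 ratios of -0.59 and -0.91, than in the RB160 libraries, at -0.37 and -0.32, and the knockdown effect differed between prefixes by 0.41 (SE 0.109, adjusted p = 0.0353).

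Parp14, an ADP-ribosyltransferase, stood at 9.68, 1.28 and 0.597 CPM against 4.37, 0.526 and 0.292 CPM without IL-17 and fell by 1.16 on the log2 scale (SE 0.238, adjusted p = 0.0019). With IL-17 it fell by 0.75 (SE 0.245, adjusted p = 0.0297), a call lost without replicate 1 or 3 of the control siRNA with IL-17 group (-0.76 and -0.72) or of the Imp2 siRNA with IL-17 group (-0.58 and -0.73). The ubiquitin-like modifier Isg15 and its protease Usp18 did not pass: Isg15 lay between 0.122 and 1.18 CPM, with log2 fold changes of -0.35 and -0.03, and Usp18 at or below 0.943 CPM, with -1.16 and -1.02. Xaf1, a pro-apoptotic factor, had log2 fold changes of -1.41 and -1.14 (SE 0.569 and 0.603), among the lowest of the members that did not pass.

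Ifi35, a partner of the regulator NMI, went against its neighbours in the NA libraries. It stood at 16.4, 8.55 and 9.20 CPM in control siRNA cells and at 13.4, 10.7 and 10.7 CPM in Imp2 siRNA cells, and with IL-17 at 14.2, 8.12 and 7.88 CPM against 12, 10.5 and 10.1 CPM. Thus the RB160 library was lower and both NA libraries were higher after Imp2 siRNA, and the pooled log2 fold changes of 0.07 and 0.14 did not pass. The difference of the knockdown effect between prefixes was -0.58 on the log2 scale (SE 0.114, adjusted p = 0.00705), and among NA libraries alone Ifi35 passed with IL-17, at 0.35 (adjusted p = 0.0217). Of the 33 tested members Ifi35 and Trim25 passed this test, against 5.61% of all tested genes (3.31% above and 2.31% below 0). At that share 2 of 33 is no result about the members.

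The interferon-inducible GTPases held the largest changes. Some of these proteins coat and break the membranes of vacuoles that hold bacteria or parasites. Of the 5 tested, Gbp2, Gbp3, Gbp7 and Igtp fell in unstimulated cells, Gbp3 missed the threshold in stimulated cells, and Irgm1 rose in both. Gbp2, a guanylate-binding protein (mm10, chromosome 3, 142620602 to 142638008, plus strand), stood at 8.04, 2.54 and 2.72 CPM in control siRNA cells and at 9.06, 2.79 and 2.10 CPM with IL-17. In Imp2 siRNA cells it stood at 2.62, 1.05 and 0.729 CPM, and at 2.54, 0.972 and 1.13 CPM with IL-17. The groups did not overlap within either prefix, and the log2 fold changes were -1.58 (SE 0.182, adjusted p = 1.8e-05) and -1.50 (SE 0.180, adjusted p = 2.8e-05).

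Gbp7 stood at 4.42, 0.491 and 0.358 CPM against 1.42, 0.205 and 0.175 CPM without IL-17, -1.46 on the log2 scale (SE 0.324, adjusted p = 0.0032), and at 4.23, 0.717 and 0.263 CPM against 1.19, 0.0608 and 0.0940 CPM with it, -2.04 (SE 0.334, adjusted p = 0.00036). Without Imp2 siRNA replicate 1 the call on Gbp7 without IL-17 was lost (-1.17). Gbp3, which did not reach a mean of 1 CPM in any group, fell by 1.67 without IL-17 (SE 0.354, adjusted p = 0.0024); with IL-17 its -0.90 did not pass, but did at -1.34 without Imp2 siRNA with IL-17 replicate 2.

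Igtp, an immunity-related GTPase also called Irgm3, stood at 3.12, 0.355 and 0.328 CPM in control siRNA cells and at 1.54, 0.205 and 0.146 CPM in Imp2 siRNA cells, -0.99 on the log2 scale (SE 0.278, adjusted p = 0.0138). With IL-17 the levels were 2.42, 0.159 and 0.379 CPM against 0.508, 0.0608 and 0.0627 CPM, -2.19 (SE 0.331, adjusted p = 0.00018). The call without IL-17 was lost without replicate 1 of either group (-0.96 in both cases) and with DESeq2 (adjusted p = 0.0505). The Igtp gene runs from 58199556 to 58207591 on chromosome 11 (mm10, plus strand). It overlaps Irgm2, which runs from 58199618 to 58222782 on the same strand, and how reads in the overlap were counted is not stated. Iigp1, which was not tested, was at 0.666 and 0.491 CPM in the RB160 control siRNA libraries and at 0.118 and 0 CPM in the RB160 Imp2 siRNA libraries.

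Irgm1, the regulatory GTPase that keeps the effector GTPases off the cell's own membranes, went up. It stood at 67.9, 41.7 and 43.7 CPM in control siRNA cells and at 87.3, 50.4 and 53.2 CPM in Imp2 siRNA cells, 0.31 on the log2 scale (SE 0.0775, adjusted p = 0.0071). With IL-17 the levels were 45.7, 35.9 and 34.6 CPM against 64.2, 44.1 and 49.4 CPM, 0.43 (SE 0.0785, adjusted p = 0.00075). In each prefix and IL-17 state the Imp2 siRNA libraries lay above the control siRNA libraries, with log2 ratios from 0.28 to 0.49. The Irgm1 call without IL-17 was lost without Imp2 siRNA replicate 1 (0.23, adjusted p = 0.0559).

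**Figure D4:**
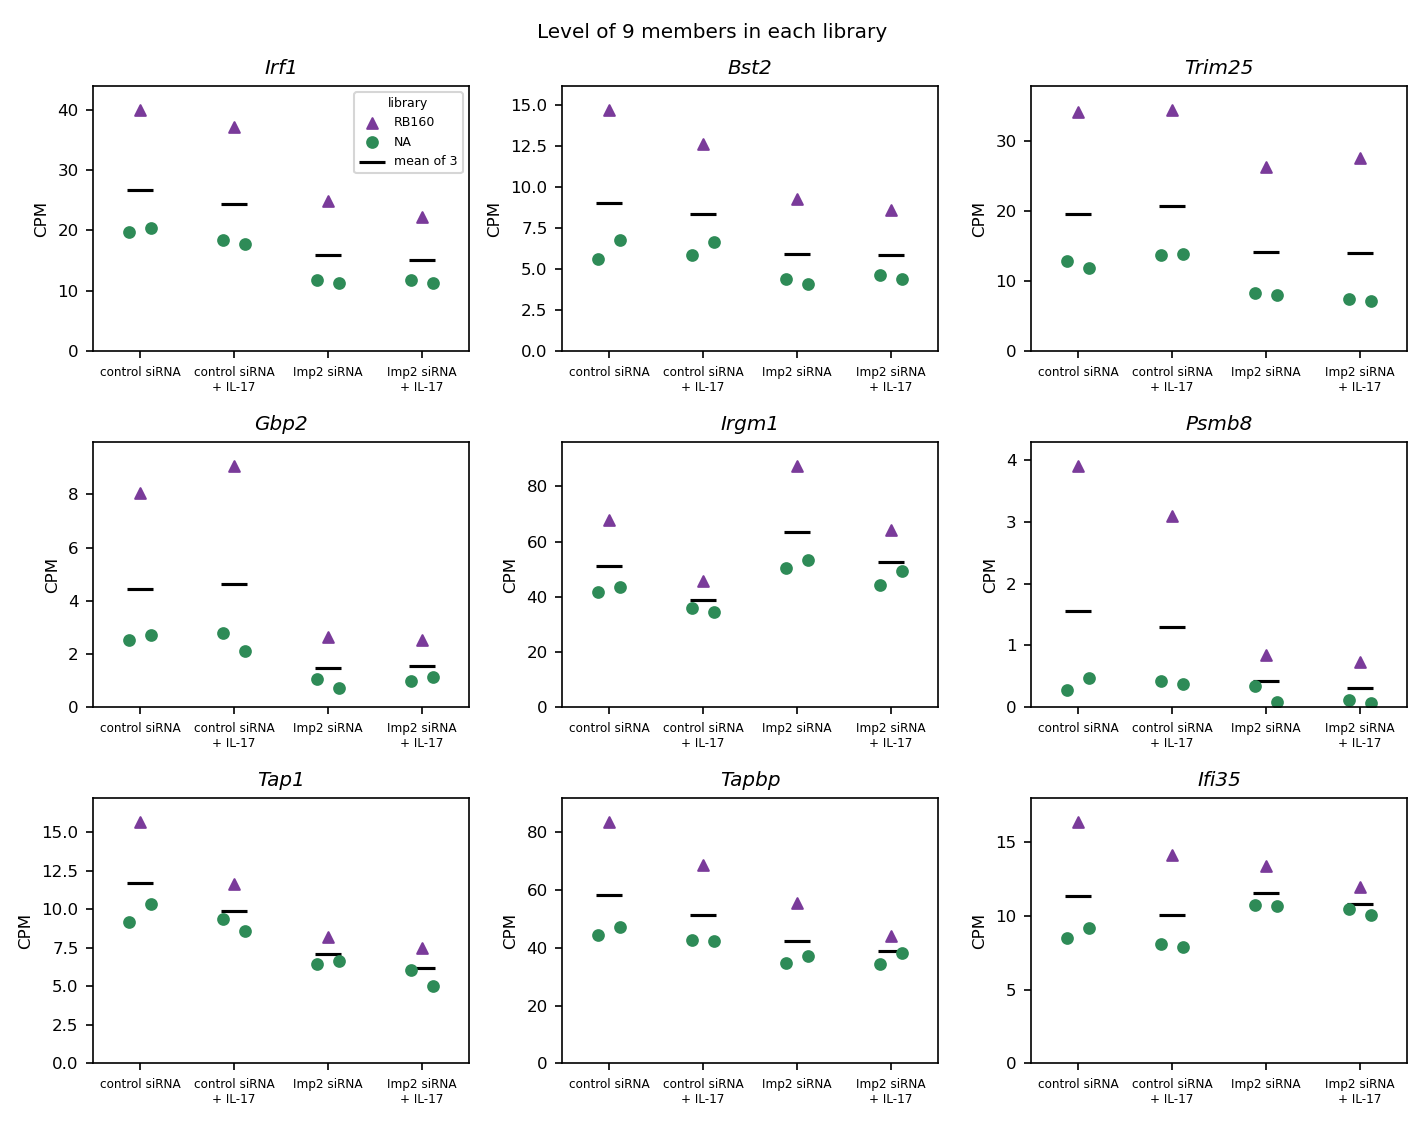
Level in CPM (y axes, from 0) of 9 members in every library of the 4 groups (x axis); triangles are RB160 libraries, circles NA libraries and dashes the mean of 3 libraries. Irf1, Bst2, Trim25, Gbp2, Tap1 and Tapbp step down from control to Imp2 siRNA in both kinds of library, Irgm1 steps up, and Ifi35 steps down in the RB160 and up in the NA libraries.

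Because Gbp2, Gbp3, Gbp7 and Igtp fell while Irgm1 rose, their promoters are shown side by side. The stretches hold the ISRE letters (GAAA, then 2 bases of any kind, then GAAA), searched on both strands, with 15 bases on either side (RefSeq, GRCm38.p6, 5′ to 3′ on the strand of the gene); capitals mark the match, which begins with TTTC when it lies on the opposite strand, and runs longer than 10 capitals are overlapping matches.
Gbp2, chr3:142620589-142620628, plus strand: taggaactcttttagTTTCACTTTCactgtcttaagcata
Gbp3, chr3:142559984-142560029, plus strand: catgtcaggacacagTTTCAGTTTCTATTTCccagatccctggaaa
Gbp7, chr3:142530268-142530307, plus strand: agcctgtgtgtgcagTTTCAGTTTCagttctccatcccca
Igtp, chr11:58199507-58199546, plus strand: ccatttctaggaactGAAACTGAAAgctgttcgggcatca
Irgm1, chr11:48871420-48871465, minus strand: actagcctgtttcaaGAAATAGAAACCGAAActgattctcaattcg
All 5 held a match before the RefSeq start. Irgm1, which rose, held a pair of overlapping matches at -30 to -15 from the start, and Gbp2, which fell, a single one at -59 to -50. The letters thus stood before the members that fell and before the one that rose.

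The same letters stood in the promoters of other members whose levels behaved differently, shown here for Isg15 and B2m, which did not pass, and for Bst2 and Ifit3, which fell without IL-17.
Isg15, chr4:156200860-156200911, minus strand: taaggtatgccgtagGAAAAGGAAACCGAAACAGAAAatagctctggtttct
B2m, chr2:122147533-122147572, plus strand: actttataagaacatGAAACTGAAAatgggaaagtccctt
Bst2, chr8:71537572-71537617, minus strand: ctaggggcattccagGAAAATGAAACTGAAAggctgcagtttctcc
Ifit3, chr19:34583358-34583431, plus strand: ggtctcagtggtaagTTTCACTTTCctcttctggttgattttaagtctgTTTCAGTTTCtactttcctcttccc
Of the 40 members, 32 had a promoter in the RefSeq table (250 bases before to 50 after the start); Dhx58, Oas2, Mx1, Mx2, Usp18, Iigp1, Rtp4 and Parp14 did not. An ISRE match was found in 16 of the 32 (50%), against 3.99% of 27025 genes in the table. The GAS letters TTCNNNGAA were found in 9 (28.1%), against 9.55% of genes. One of them was Irf1, whose match in capitals lies at -90 to -82 from the start.
Irf1, chr11:53769909-53769947, plus strand: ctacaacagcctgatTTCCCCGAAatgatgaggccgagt
Overlaps between the motifs were confined to the Bst2 promoter, where a GAS match runs into the first ISRE match. A match is a description of the letters and not a bound site.

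Members with and without an ISRE match are given side by side, and the difference between them was not tested. Over all tested genes falls made up 16.4% without and 16.6% with IL-17, and rises 16.1% and 16.7%. Without IL-17, 10 of the 14 tested members with an ISRE match fell and 1 rose (median log2 fold change -0.58), and 6 of the 15 without one fell (median -0.54). With IL-17, 6 of 14 fell and 1 rose (median -0.45), and 8 of 15 fell (median -0.67).

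Antigen presentation genes fell at several steps of the pathway, while the light chain of MHC class I held its level. Psmb8, an immunoproteasome subunit that changes how peptides are cut, stood at 3.90, 0.273 and 0.478 CPM in control siRNA cells and at 0.851, 0.351 and 0.0875 CPM in Imp2 siRNA cells, -1.61 on the log2 scale (SE 0.385, adjusted p = 0.0055). With IL-17 the levels were 3.09, 0.425 and 0.379 CPM against 0.729, 0.122 and 0.0627 CPM, -2.07 (SE 0.405, adjusted p = 0.0013). The call on Psmb8 without IL-17 was lost without replicate 1 of the control (-1.17) or of the Imp2 siRNA group (-0.90), and among NA libraries alone it was -0.76 (adjusted p = 0.339).

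Psmb10, another immunoproteasome subunit, did not pass without IL-17, at -0.39 (adjusted p = 0.0701), but passed at -0.54 without control siRNA replicate 2. With IL-17 it fell by 0.44 (SE 0.158, adjusted p = 0.046), a call lost without any of 5 of the 6 libraries compared (log2 values from -0.49 to -0.26 for those 5) and with no low-count filter (adjusted p = 0.0549). Psmb9, the third subunit, lay at or below 1.12 CPM and did not pass, at -0.64 and -0.95 (SE 0.696 and 0.721). The Psmb9 gene runs from 34181988 to 34187764 on chromosome 17 (mm10, minus strand) and overlaps Tap1, which begins at 34187553 on the plus strand, and whether counting used the strand is not stated.

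Tap1, a subunit of the transporter that carries peptides into the endoplasmic reticulum, stood at 15.7, 9.20 and 10.4 CPM in control siRNA cells and at 11.7, 9.35 and 8.58 CPM with IL-17. In Imp2 siRNA cells it stood at 8.22, 6.43 and 6.68 CPM, and at 7.49, 6.05 and 5.05 CPM with IL-17. All 6 Imp2 siRNA libraries lay below all 6 control siRNA libraries across both prefixes, which no other tested member and 4.38% of all tested genes showed. The log2 fold changes were -0.71 (SE 0.106, adjusted p = 0.00019) and -0.67 (SE 0.108, adjusted p = 0.0003).

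Tapbp, or tapasin, which tethers MHC class I to that transporter, stood at 83.5, 44.5 and 47.2 CPM against 55.6, 34.6 and 37.2 CPM and fell by 0.44 on the log2 scale (SE 0.0958, adjusted p = 0.0036). With IL-17 it fell by 0.36 (SE 0.0964, adjusted p = 0.0115), a call lost without replicate 1 of the control (-0.33, adjusted p = 0.0502) or of the Imp2 siRNA group with IL-17 (-0.21, adjusted p = 0.0526). B2m, the MHC class I light chain, stood at 400, 500 and 458 CPM against 350, 563 and 499 CPM, and with IL-17 at 314, 475 and 476 CPM against 326, 519 and 508 CPM. Its groups overlapped, its log2 fold changes were 0.03 and 0.09 (SE 0.0792 in both), and it was the member with lower levels in the RB160 libraries.

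For IL-17 itself, none of the 33 tested members passed for IL-17 in control siRNA cells or in Imp2 siRNA cells with edgeR, against 0.409% and 0.452% of all tested genes, shares at which 0 of 33 is no result about the members. An unadjusted p under 0.05 was found for 6 and 3 members, and for 1473 and 1007 of all 13702 genes. The median log2 fold changes of the members were -0.17 and -0.08, against -0.0059 and -0.0062 for all tested genes, and 27 and 23 of the 33 lay below 0, against 52.1% and 52.8% of all tested genes. The first shrank to -0.005 without control siRNA replicate 1. Irgm1 came nearest in control siRNA cells, with a log2 fold change of -0.38 (SE 0.0785, adjusted p = 0.0588), and it passed with DESeq2 (adjusted p = 0.0049), with no low-count filter (adjusted p = 0.0107) and when the compared groups alone were fitted (adjusted p = 0.0185); DESeq2 called 1 member in control and 0 in Imp2 siRNA cells. In Imp2 siRNA cells the log2 fold change of Irgm1 was -0.25 (adjusted p = 0.29). The abundant Tapbp and B2m had log2 fold changes after IL-17 of -0.17 and -0.13 in the control cells, and of -0.10 and -0.07 after knockdown. Standard errors over the tested members ran from 0.0646 to 0.692 in control siRNA cells and from 0.0676 to 0.828 in Imp2 siRNA cells, so that changes of scarce members were hard to detect.

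**Figure D5:**
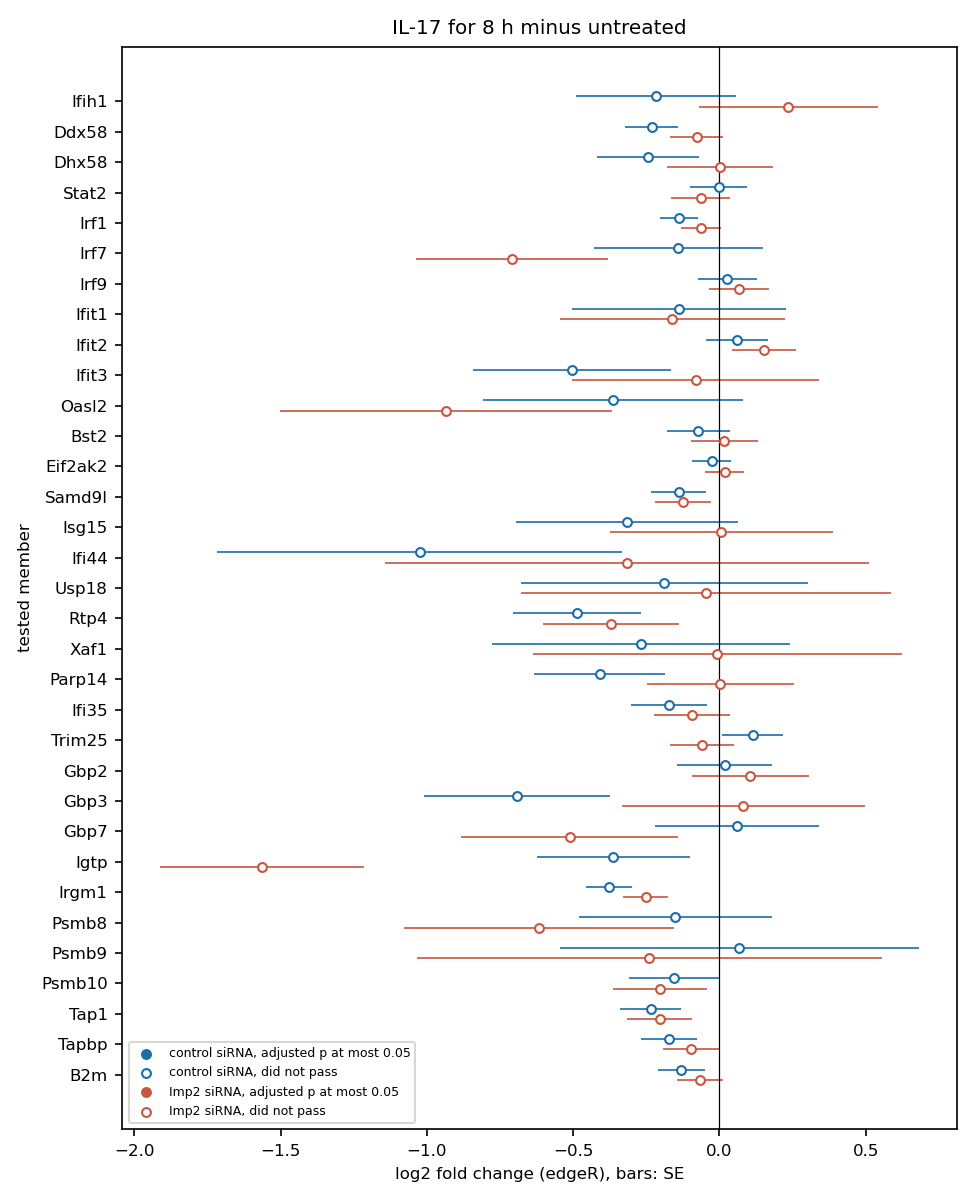
Log2 fold change after IL-17 for 8 h against unstimulated cells (x axis; bars, SE) for the 33 tested members in control siRNA cells (blue) and Imp2 siRNA cells (red), 3 libraries a group. All points are open, since no member passed an adjusted p of 0.05, and Igtp in Imp2 siRNA cells lies lowest at -1.56.

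The effect of IL-17 was not shown to differ between control and Imp2 siRNA cells for any member. The difference of the IL-17 effects, Imp2 siRNA minus control siRNA, passed for none of the 33 members and for 0% of all tested genes with edgeR; 1 member had an unadjusted p under 0.05, and DESeq2 called 0. That member was Igtp, at -1.20 on the log2 scale (SE 0.436, unadjusted p = 0.0154, adjusted p = 1). The same test is that of whether the knockdown effect depended on IL-17. Its standard errors ran from 0.0938 to 1.09 over the members.

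Interferon ligand genes were at or near 0 counts. Of 10 listed ligand genes, 9 had 0 counts in all 12 libraries, which allows a level of up to 0.00663 CPM over all 452620707 counts (3 counts, counting error only), and Ifne, an epithelial type I interferon, had 5 counts, all in control siRNA with IL-17 replicate 1. Among 5 tested receptor subunits none passed without IL-17. With it Ifnar2 fell by 0.31 and Ifnar1 by 0.17. The Ifnar2 call was lost without control siRNA with IL-17 replicate 1 (-0.20). The Ifnar1 call was kept in only 2 of the 6 fits that left out 1 of the libraries compared (log2 values from -0.20 to -0.14 over the 6). Over all tested genes 16.4% fell without and 16.6% with IL-17, so counts among 5 genes are no result about the receptors.

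Signal transducers fell with the members in part. Stat3, the transducer of IL-6 family signals, fell by 0.95 and 0.98 on the log2 scale, and Jak1, the kinase that interferon receptors share, fell by 0.18 and 0.21. The Jak1 call without IL-17 was lost without control siRNA replicate 2 (-0.15) or Imp2 siRNA replicate 1 (-0.16) or 3 (-0.17). Of 11 tested genes of nucleic acid sensing, falls numbered 2 in unstimulated and 1 in stimulated cells, and rises 2 in each. Over all tested genes falls made up 16.4% and 16.6%, and rises 16.1% and 16.7%. At these shares the counts are no result about the sensing genes. Tmem173, or STING, the adaptor for cytosolic DNA, fell by 0.51 and 0.39, and Irf3 and Mavs, the factor and the adaptor that RNA sensors act through, had log2 fold changes of 0.27 and 0.31 and of 0.27 and 0.29. Of 10 tested brakes on interferon signalling, falls numbered 5 and 4 in the same order, and rises 1 in each. Socs3, an inhibitor of JAK kinases, stood at 36.6, 34.5 and 35.1 CPM against 19.0, 16.4 and 15.9 CPM and fell by 1.06, and by 1.26 with IL-17.

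Interferon-stimulated genes outside the 40 were also counted. That list too was drawn up with earlier results of these data known, so it is no independent check on the members. Of 48 listed, 33 were tested. In unstimulated cells 18 of these fell and 2 rose (median log2 fold change -0.57), against 16.4% and 16.1% of all tested genes. In stimulated cells 17 fell and 3 rose (median -0.41), against 16.6% and 16.7%. Ifitm1, a membrane protein that blocks viral fusion, had the largest change without IL-17, -3.25 (SE 0.706), at 0.642, 0.246 and 0.149 CPM against 0.0945, 0 and 0 CPM. With IL-17 its log2 fold change was -2.30 (SE 0.590), a call lost without replicate 1 of the control (-2.15) or of the Imp2 siRNA group (-1.24). Gbp6, a guanylate-binding protein, had log2 fold changes of -2.40 and -2.58 and was counted almost wholly in RB160 libraries, so that both calls were lost without either RB160 library compared (log2 values from -3.18 to -1.78).

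Of 19 further antigen presentation genes, listed with the same results known, 15 were tested. In unstimulated cells 9 of these fell (median log2 fold change -0.25), in stimulated cells 8 (median -0.31), and none rose in either. Over all tested genes the falls were 16.4% and 16.6%, and the rises 16.1% and 16.7%. Erap1, the peptidase that trims peptides in the endoplasmic reticulum, fell by 0.95 and 0.91 on the log2 scale. The class Ib gene H2-Q4 fell by 2.04 and 1.48, but was at or below 0.0896 CPM in every NA library; without control siRNA with IL-17 replicate 1 its log2 fold change with IL-17 was 2.07, and it did not pass without replicate 1 of either Imp2 siRNA group (-3.61 and -3.14) or with DESeq2 with IL-17 (adjusted p = 0.178).

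In the RIP-seq experiment 6 of the 40 members were listed as enriched with IMP2. The authors' deposited table holds 5294 genes, all with a log2 fold change of IMP2 over IgG of at least 1.00 and an adjusted p of at most 0.05, and no values per precipitation, so a member missing from it has no value here. B2m had a log2 enrichment of 4.38 (SE 0.587, adjusted p = 2.5e-12) in the authors' deposited table, exceeded by 1.81% of the genes listed. Ifi35 followed in the authors' deposited table at 4.17 (SE 1.19), then Bst2 at 3.12 (SE 0.785), Tapbp at 3.02 (SE 0.597), Psmb10 at 2.01 (SE 0.566) and Irgm1 at 1.44 (SE 0.402), around a median of 2.16 over the table.

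The 6 listed members were 18.2% of the 33 tested in RNA-seq, while 34.5% of all 13702 tested genes were in the authors' deposited table. In the knockdown they did not move as one: Bst2 and Tapbp fell in both comparisons, Psmb10 fell with IL-17, Irgm1 rose in both, and B2m and Ifi35 passed in neither. The members with the lowest log2 fold changes after Imp2 siRNA, among them Gbp2, Gbp7, Igtp and Psmb8, were not listed. These 4 were scarce, with RNA-seq group means from 0.21 CPM (Igtp) to 4.65 CPM (Gbp2). Group means of the 6 listed members ran from 5.89 CPM (Bst2) to 471 CPM (B2m). The part of expression level in being listed was not tested. Both experiments come from fibroblasts, but the RIP-seq cells had IL-17 for 3 h and the RNA-seq cells for 8 h or not at all.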

How the data were processed

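The authors' deposited count table holds unnormalised reads per gene in 12 RNA-seq libraries (Nextera XT, per the labels). Per the submitters' processing notes, CASAVA 1.4, STAR, DESeq2 and build mm10 were used; roles, counting tool and strand use are not given. The authors' deposited RIP-seq table (SMART-Seq v4 libraries, per the labels) gives a mean normalised signal, a log2 fold change, its standard error and a Wald score, and p-values; it was read as deposited.

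Counts were tested with edgeR 4.0.16 (R 4.3.3): filterByExpr by group with a minimum count of 10, TMM factors, robust glmQLFit on all 12 libraries with group and title prefix, glmQLFTest, and Benjamini-Hochberg adjustment over 13702 genes at 0.05. The biological coefficient of variation was 7.95%. DESeq2 1.42.0 was an alternative; leaving out 1 library at a time was another. Levels per library are TMM-scaled CPM, and ratios within a prefix have 0.1 CPM added. Intervals from counts cover counting error only.

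The members and lists were chosen with earlier results of these data known. Named members are up to 16 past the threshold for Imp2 siRNA whose mean reaches 1 CPM in some group, by mean absolute log2 fold change, plus those in the RIP-seq table; Gbp3, Oasl2, Ddx58 and Stat2, which also passed, and untested or other members were named after their values were seen, to account for the whole set. Other lists name up to 6 genes past the threshold with the largest changes; Irf3, Mavs and Ifne were added after their values were seen. The contrast of the prefixes, its product with siRNA the counts of groups that do not overlap and the block of library sets were added after seeing the data. Promoters are from the RefSeq table of GRCm38.p6.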

Additional observations from a re-analysis of the deposited data

Results flagged for a closer look

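The effect of Imp2 siRNA on Ifi35 differed between libraries of the 2 title prefixes, by -0.58 on the log2 scale (RB160 minus NA, SE 0.114, adjusted p = 0.00705 over all tested genes in edgeR's quasi-likelihood test): both RB160 Imp2 siRNA libraries lay below both RB160 controls, and all 4 NA Imp2 siRNA libraries lay above all 4 NA controls. For Trim25 the effect differed by 0.41 (SE 0.109, adjusted p = 0.0353), with lower levels after Imp2 siRNA under both prefixes and the larger step in the NA libraries. Of the 33 tested members these 2 passed, against 5.61% of all tested genes, a share at which 2 of 33 is no result about the members. The RB160 libraries number 1 in each group. Over all 33 tested members, 26 of these differences lay below 0, with a median of -0.25 against 0.0022 for all tested genes, and 8 had an unadjusted p under 0.05. The counts of 26 and 8 were not made over all tested genes and are no result about the members. The labels do not explain the prefixes, and the cause was not tested.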

How the results depend on the processing

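With no prefix term, 0 members passed for Imp2 siRNA without IL-17 and 0 with it; the spread between prefixes is then part of the residual. DESeq2, RLE size factors, no low-count filter and the compared groups alone gave 17 to 19 members without IL-17 and 15 or 16 with it. Leaving out 1 library at a time gave 11 to 19 members without IL-17, 11 being without Imp2 siRNA replicate 1, and 11 to 19 with it. For IL-17 in control siRNA cells, no low-count filter, DESeq2 and the compared groups alone each gave 1 member, Irgm1, and leaving out 1 library gave 0; for IL-17 in Imp2 siRNA cells and for the difference of the IL-17 effects every alternative run gave 0. The shorter core GAAANNGAA was found in the promoters of 19 members (59.4%), against 9.76% of genes.

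Among NA libraries alone, calls on Psmb8, Gbp7, Igtp, Ifit3, Ifih1 and Stat2 without IL-17 and on Parp14, Psmb10 and Stat2 with it were lost, and Ifih1 with IL-17 changed sign, to 0.0182, as did Tapbp for IL-17 in Imp2 siRNA cells, to 0.0204; the cause was not tested beyond there being fewer libraries. Leaving out 1 library turned the sign of values near 0: B2m without IL-17 (-0.05 to 0.15), Ifi35 without IL-17 (-0.017 to 0.224), Ifih1 with IL-17 (-0.763 to 0.0612), B2m for IL-17 in Imp2 siRNA cells (-0.0988 to 0.0021) and Tapbp for IL-17 in Imp2 siRNA cells (-0.196 to 0.0516). It also turned that of H2-Q4 with IL-17 (-3.14 to 2.07). The titles carry no replicate number shared between groups, but RB160, NA_1 to NA_4 and NA_5 to NA_8 each cover the 4 groups once. With these 3 sets as a replicate block in place of the prefix, a fit added after seeing the data, 18 members passed without IL-17 and 15 with it, 1 (Irgm1) passed for IL-17 in control siRNA cells, and 0 for IL-17 in Imp2 siRNA cells and for the difference; Psmb10 with IL-17 no longer passed (adjusted p = 0.0509). Differences between the 2 NA libraries of a group correlated between groups at 0.028 to 0.188 across genes, not above 0.1 in every pair, so the sets are not taken as pairs. The RIP-seq table gives no values per precipitation. Members with few counts, 7 of them untested, limit what can be detected. The IL-17 comparisons can also miss changes several times larger than their standard errors. Irgm1 in control siRNA cells, at a log2 fold change of -0.38, did not pass with edgeR (adjusted p = 0.0588).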
